A study of Mus musculus with 2 samples.

Results

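Regions of the mouse genome where GATA3 chromatin immunoprecipitation gave fewer reads in CD4+ T cells stimulated with TGF-β and IL-4 (written TGF-β/IL-4) are described here: 2106 regions, made of 2220 bins of 200 bp. They were chosen by the read counts of both libraries. Reads were placed at their fragment centre (the 5′ end moved 63 bp inwards) in bins of 200 bp on chromosomes 1 to 19, and counted per 1000000 reads of the library (RPM). A bin was kept when it held at least 20 reads in the library whose treatment is given as NA (the NA library), when its RPM ratio (TGF-β/IL-4 over NA) was at most 0.5, when at least 70% of its reads had the mapping quality 42, the highest in the files, and when 20% to 80% of them lay on the plus strand. Adjacent bins were joined. Of the 36795 bins with at least 20 reads, 34169 met the limits on quality and strand and are called enriched bins below. The 2220 member bins were 6.5% of these, so lower sites were a minority: the median ratio of the enriched bins was 1.2 and 64.7% of them were over 1.

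GATA3 is a zinc-finger transcription factor that CD4+ T cells need to develop and that directs T helper 2 differentiation, with IL-4 acting upstream through STAT6. IL-4 together with TGF-β drives cultured CD4+ T cells towards IL-9 production, a programme in which GATA3 also takes part, while TGF-β alone favours Foxp3-expressing regulatory T cells. GATA factors bind very many sites whose occupancy differs with the state of the cell.

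The series holds 2 libraries, 1 per condition. Naive CD4+CD25-CD62L+ T cells of C57BL/6 mice were put in culture on bound antibody to CD3 at 1 µg/ml with soluble antibody to CD28 at 1 µg/ml. The library labelled TGF-β +IL-4 came from cells given TGF-β1 at 2 ng/ml and IL-4 at 10 ng/ml. The other has NA as its treatment, and since the shared protocol covers TGF-β1 with and without IL-4, it was not possible to say from the labels whether its cells received TGF-β1 alone or no cytokine. It is called the NA library, and "lower" means lower with TGF-β/IL-4 than in it. On chromosomes 1 to 19, X and Y there were 22963959 NA reads and 15561681 TGF-β/IL-4 reads. No replicate, input or control antibody library was used, so no comparison of the conditions has a test. Chromatin binding gives no marker expression, and the cell type rests on its label. The regions are given by their mm9 positions. Neither an annotation nor a sequence of mm9 was used, so no genes or bases are printed.

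Most lower regions were narrow and of modest strength, and a few were strong. Of the 2106 regions, 2000 were a single bin, 99 were 2 bins wide, 6 were 3 and 1 was 4. The reads in the NA library ranged from 20 to 304, with a median of 25 (1.09 RPM). In the TGF-β/IL-4 library they ranged from 0 to 84, with a median of 7 (0.45 RPM). The ratio had a median of 0.394, and the middle 80% of regions lay between 0.221 and 0.482. At 286 regions the ratio was at most 0.25, and at 1002 it was over 0.4, close to the limit. These values describe the choice and support nothing further. Summed over all members, 70937 reads (3089 RPM) in the NA library stood against 17994 (1156 RPM) with TGF-β/IL-4.

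The 20-read minimum admitted many bins near the bottom of the range. Bins with 20 to 24 reads made up 47.2% of the member bins, and 9.71% of all enriched bins of that strength were members. This share fell with strength, to 6.52% at 25 to 34 reads, 5.11% at 35 to 49, 3.54% at 50 to 99 and 1.73% at 100 or more, where 39 of 2257 bins were members. The exact Clopper-Pearson 95% interval of the ratio, which covers counting error only and does not allow for the choice of low ratios, left out 1 at 1488 of the 2106 regions. It did so at 48.8% of regions with 20 to 24 reads and at 100% of those with 35 or more. The 100% follows from the rule, since at that depth a ratio of at most 0.5 is itself enough to leave out 1. The interval lay wholly under 0.5 at 92 regions.

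**Figure D1:**
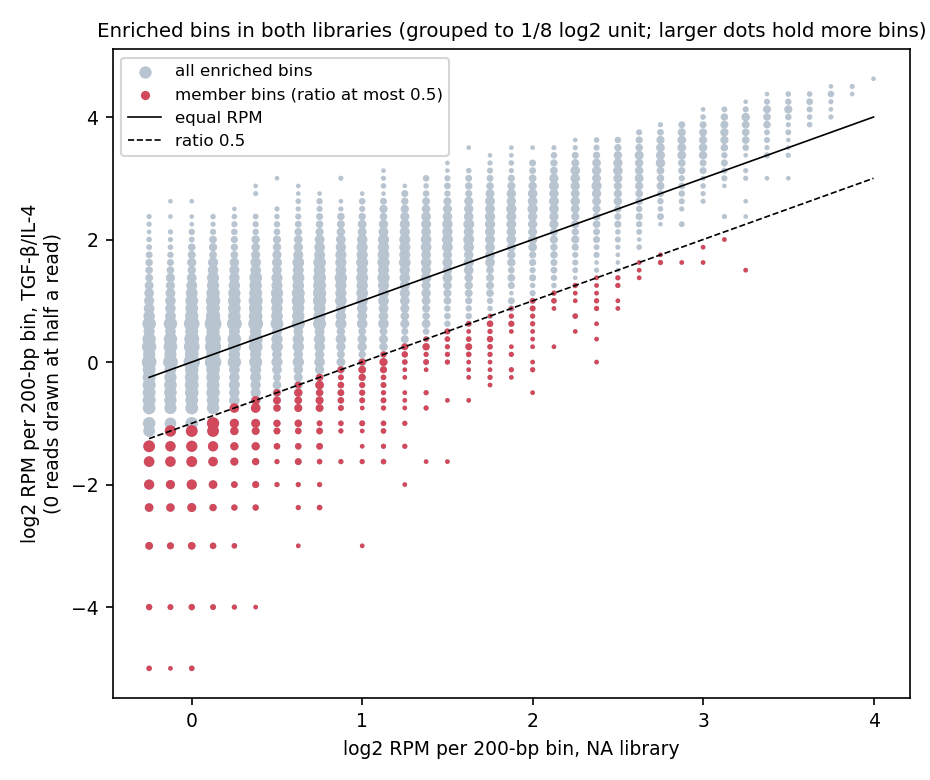
Reads per 1000000 on a log2 scale in the NA library (horizontal) and the TGF-β/IL-4 library (vertical) for the 34169 enriched bins in grey, with member bins in red, grouped to a grid; the solid line marks equal RPM and the dashed line a ratio of 0.5. Members are crowded at the left, near 20 reads, and only 39 of them have 100 reads or more.

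Values just around the limit show how little separates a member from its neighbours in rank. On the inner side, the bins at chr4:61928201-61928400 and at chr7:50606601-50606800 each had 65 reads in the NA library and 22 with TGF-β/IL-4, a ratio of 0.499. On the outer side, the bins at chr2:29574201-29574400 and at chr12:101612601-101612800 each had 56 and 19, a ratio of 0.501. The limit thus parts bins that a single read could exchange.

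The member with the most reads, which is also the widest, lay at chr7:4896401-4897200. It held 304 reads in the NA library and 42 in the TGF-β/IL-4 library, 13.2 against 2.7 RPM, a ratio of 0.204 (95% interval 0.144 to 0.282). Each strand gave a like ratio, 0.193 from 145 and 19 plus-strand reads and 0.214 from 159 and 23 minus-strand reads. The NA library showed a pair of summits within the 800 bp of this region. The level there was 15 times that of the surroundings, taken as the mean bin 1 to 5 kb away on both sides, and 3.13 times with TGF-β/IL-4.

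On chromosome 14, 2 strong members lay within 5 kb of each other. The region from 70490601 to 70491200 held 271 reads against 84, a ratio of 0.457 (0.354 to 0.586). The region from 70487001 to 70487400 held 209 against 44, a ratio of 0.311 (0.219 to 0.432). Both remained above the surroundings of the TGF-β/IL-4 library, at 6.96 and 6.09 times, against 7.54 and 9.78 times in the NA library. Each lay in the surroundings of the other, taken 1 to 5 kb away, and the surroundings of both were thus lower with TGF-β/IL-4 too. Both sites thus had fewer reads with TGF-β/IL-4 and were still raised over their surroundings.

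The other strong members had ratios between 0.272 and 0.464. At chr10:53769401-53769600 a single bin held 221 reads against 43, a ratio of 0.287 (0.202 to 0.40). This bin had the densest reads of all members in the NA library, with 55.25% of its positions on either strand holding a read. Since the deposited files keep 1 read per position and strand, the room for further reads there is limited. At chr2:35638801-35639200 the NA library had 243 reads and the TGF-β/IL-4 library 67 (ratio 0.407, 0.306 to 0.535). At chr11:116224401-116224800 the counts were 198 and 54 (ratio 0.402, 0.292 to 0.546). These 3 stood at 10.7, 21.8 and 7.66 times the surroundings with TGF-β/IL-4, against 43.1, 27.7 and 15.7 times in the NA library. The surroundings of the chromosome 2 member were thus lower with TGF-β/IL-4 as well.

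The last pair of the 8 strongest lay on chromosomes 3 and 6. The region at chr3:95102001-95102400 held 194 reads against 61, a ratio of 0.464 (0.342 to 0.622). The region at chr6:135380801-135381200 held 190 against 35, a ratio of 0.272 (0.184 to 0.391). In the latter 80.9% of reads had the top mapping quality, and in the other 7 of these regions 94.2% to 99.6% had it.

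At 2 of these strong sites a second summit nearby had nearly the same RPM in both libraries. These second summits were looked for after the profiles had been seen, as the pair of adjacent bins with the most NA reads between 600 and 2000 bp from the edge of the region. Beside the chromosome 10 member, from 53767801 to 53768200, there were 128 reads in the NA library and 86 with TGF-β/IL-4, or 5.57 and 5.53 RPM, a ratio of 0.991 (0.745 to 1.31). Beside the chromosome 11 member, from 116222801 to 116223200, there were 74 and 53 reads, or 3.22 and 3.41 RPM, a ratio of 1.06 (0.728 to 1.52). At both places the lower summit and the even one were 1200 bp apart at their edges. The interval of the even summit did not overlap that of the lower one. The lower summit was chosen by the same counts for its low ratio, so no conclusion is drawn from this gap. Around the other 6 regions the best such pair of bins held 10 to 16 reads, too few to compare.

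**Figure D2:**
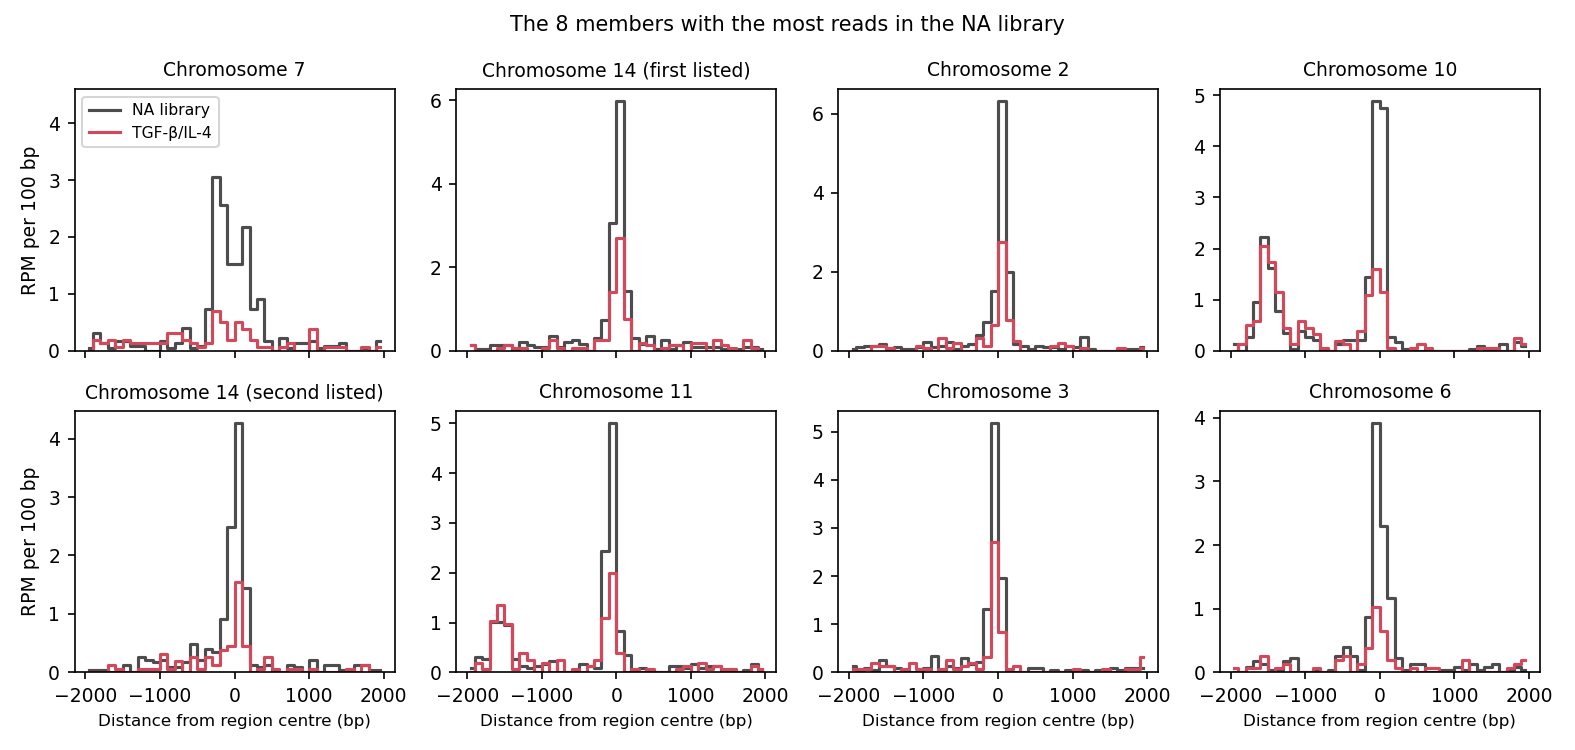
RPM per 100 bp against the distance from the centre of each of the 8 members with the most reads, in order of reads; grey is the NA library and red the TGF-β/IL-4 library. The central summit is lower in red in each panel, while the second summits left of the centre on chromosomes 10 and 11 have about equal height, at 5.57 against 5.53 RPM and 3.22 against 3.41 RPM summed over 400 bp.

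Ranked by the upper bound of the interval, the most firmly lower members were mostly small. At chr7:88255401-88255600 the NA library had 44 reads and the TGF-β/IL-4 library 2 (ratio 0.0671, 0.00788 to 0.257). At chr12:110656801-110657200 the counts were 155 and 19 (ratio 0.181, 0.106 to 0.292), and the site stayed at 5.98 times its surroundings. At chr5:37461601-37461800 the counts were 61 and 5 (ratio 0.121, 0.0379 to 0.298), and the TGF-β/IL-4 level there was 1.59 times the surroundings.

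In 4 of these 8 members the TGF-β/IL-4 library had no read. They lay at chr6:118949201-118949400, at chr8:112652601-112652800 and at chr11:103917601-103917800, each with 22 reads in the NA library, and at chr13:68726801-68727000, with 21. Set against a floor of 3 reads in the TGF-β/IL-4 library, and with the NA count taken as exact, the first 3 were 4.97-fold lower and the last 4.74-fold lower. The exact intervals of the ratio, which also cover counting error in the NA reads, ran from 0 to 0.269 and from 0 to 0.283. In all, 7 of the 2106 members had 0 reads with TGF-β/IL-4 and 179 had 3 or fewer. The remaining one of the 8 is the wide region of chromosome 7 described first.

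The wide members also included weaker sites. Of the 7 regions of 3 or 4 bins, 5 have not been described above. The region at chr9:41021601-41022200 had 160 reads against 42 (ratio 0.387, 0.269 to 0.547). That at chr8:119590801-119591400 had 124 against 18 (ratio 0.214, 0.123 to 0.353), with 0.153 on the plus strand and 0.268 on the minus strand. The wide regions at chr3:145862201-145862800, at chr1:155148201-155148800 and at chr6:67137401-67138000 had 66 to 79 reads against 17 to 21, with ratios of 0.38 to 0.413.

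Since the same reads chose and measured the members, the choice was repeated on 1 strand and the count made on the other. Reads of the other strand did not enter that choice. They come from the same library, and copies of a fragment can be read from either end, so they are no replicate of the condition. Bins chosen in this way were mostly lower on the other strand too, by less than on the strand that chose them. With a minimum of 10 reads on 1 strand they outnumber the member bins and are not the same set. With at least 10 plus-strand reads and a plus-strand ratio of at most 0.5, 5432 of 39826 bins were chosen, under the same quality limit and with no limit on strands. Their median ratio was 0.328 on the plus strand and 0.671 on the minus strand, against 1.27 on the minus strand for all 39826. On the minus strand 36.1% of the chosen bins had a ratio of at most 0.5, beside 9.24% of all, and 72.4% were under 1, beside 34.3%. The reverse choice gave 5637 of 39986 bins, with a median of 0.681 on the plus strand and 36.2% at most 0.5, beside 9.3% of all.

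Strong sites kept more of their difference on the unused strand. With at least 20 reads on the choosing strand, the 595 bins chosen on the plus strand had a median ratio of 0.537 on the minus strand, and 42.7% were at most 0.5, beside 4.23% of the 11515 bins of that strength. The 539 chosen on the minus strand had 0.527 and 46.6%, beside 4.16%. With at least 40 reads, 88 bins chosen on the plus strand had a median of 0.482 on the minus strand, 58.0% at most 0.5 beside 2.15%, and 86 of 88 were under 1. The 91 chosen on the minus strand had 0.44, 68.1% beside 2.54%, and 91 of 91 under 1. From the choosing strand to the other the median ratio of plus-strand choices moved from 0.328 to 0.671 at 10 reads, from 0.393 to 0.537 at 20 and from 0.404 to 0.482 at 40, so the strand that made the choice gave the lower ratio at each strength. Among the 2106 members themselves, 1184 had a ratio of at most 0.5 on each strand taken alone, and 22 had a strand at 1 or more. Reads of both strands chose the members, so these 2 counts follow in part from the rule. They are not a check of one strand by the other.

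**Figure D3:**
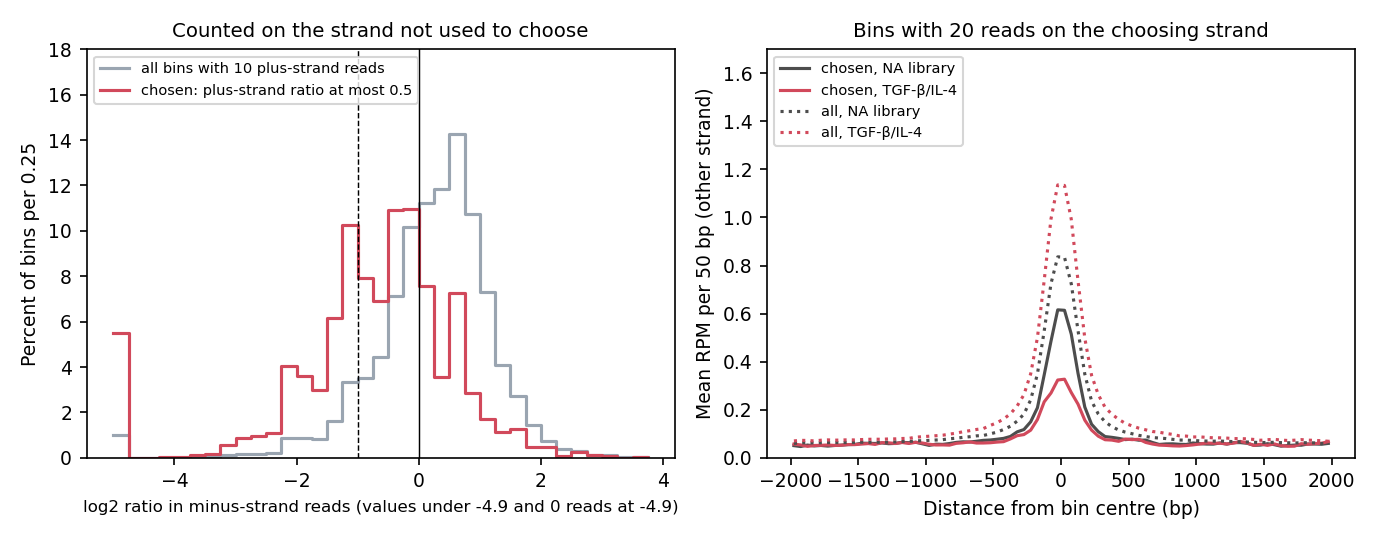
Left, percent of bins by log2 ratio of RPM in minus-strand reads for all 39826 bins with 10 plus-strand reads (grey) and the 5432 chosen by a plus-strand ratio of at most 0.5 (red); the dashed line is a ratio of 0.5. Right, mean RPM per 50 bp of the strand not used to choose, scaled to both strands, by distance from the bin centre, for 951 chosen bins (solid) and all 14322 bins (dotted) with 20 reads on the choosing strand, where a bin that passed on each strand enters once for each; the chosen bins reach 0.325 RPM at the centre with TGF-β/IL-4 and 0.615 RPM in the NA library.

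The profile on the unused strand kept the form of a binding site in both libraries. With at least 20 reads on a strand there were 1134 choices at 951 bins, since 183 bins were chosen on each strand in turn and enter the mean once for each. At these, the mean RPM per 50 bp of the other strand, scaled to both strands, was 0.615 at the centre in the NA library, 11.5 times that of the flanks beyond 1500 bp, and 0.325 with TGF-β/IL-4, 5.97 times the flanks. The flanks themselves were alike, at 0.0533 and 0.0545. Over all 14322 bins of that strength, of which 8753 passed on each strand and enter once for each, the order was the opposite, with 0.835 in the NA library and 1.13 with TGF-β/IL-4.

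Around the members the ratio was lowest in the member bin, higher in its near shoulders and close to 1 in the surroundings. The reads of the 4 bins next to a member bin (400 bp on each side) did not enter its choice. At the 106 regions of more than 1 bin, however, these bins include other member bins, chosen for a low ratio themselves. The same holds where separate members are parted by a single bin. In the 4 bins the median ratio was 0.834. The same measure was 1.21 beside the 10752 enriched bins with a ratio of 0.8 to 1.25, 1.82 beside the 3336 with a ratio of at least 2, and 1.32 over all enriched bins. In the surroundings, 1 to 5 kb away, the medians were 0.937, 1.03, 1.16 and 1.05 in that order. The ratio from summed reads of the surroundings was 0.997 at members and 1.12 over all enriched bins, and bin by bin it was under 1 around 59.2% of member bins and 43.4% of all. The shoulders of the members thus had lower ratios than those of other sites, and the surroundings did so by less. In the mean profile the flanks beyond 1500 bp held 0.0502 RPM per 50 bp in the NA library and 0.0501 with TGF-β/IL-4, while the centre held 0.37 and 0.139. The dip at the very centre of the TGF-β/IL-4 profile follows from the choice of bins with few reads there. The most frequent distance between plus-strand and minus-strand 5′ ends was 124 bp in each library at members and 122 bp at bins with a ratio of 0.8 to 1.25. Both sets were chosen after the shift of 63 bp and with the limit on strands, which favour such a spacing, so this is a description.

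**Figure D4:**
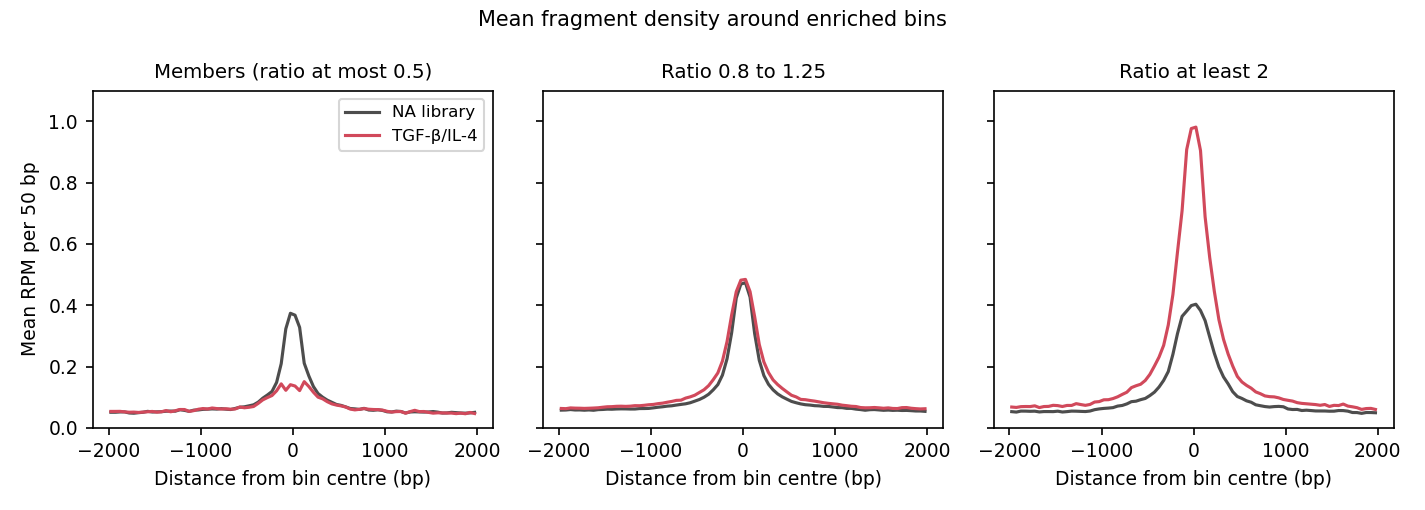
Mean RPM per 50 bp within 2000 bp of the bin centre for 2220 member bins, 10752 bins with a ratio of 0.8 to 1.25 and 3336 with a ratio of at least 2, in the NA library (grey) and the TGF-β/IL-4 library (red). The flanks of the members coincide, and the central heights are 0.37 and 0.139 RPM.

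Many members were still peaks in the TGF-β/IL-4 library, though in a smaller share than of all enriched bins. The members stood at a median of 7.58 times their surroundings in the NA library and 3.01 times in the TGF-β/IL-4 library. The level with TGF-β/IL-4 was at least 3 times the surroundings at 1061 of the 2106 members and under the surroundings at 213. Counted by bins, 50.6% of member bins were at least 3 times the surroundings, beside 89.5% of all enriched bins. Under the surroundings were 10.2% of member bins, beside 1.17% of all. These counts and shares follow in part from the rule, since under the ratio limit a member with few NA reads can hold only a few TGF-β/IL-4 reads. Of the 57 regions with 100 or more reads, 55 were at least 3 times their surroundings with TGF-β/IL-4, at a median of 10.7, whereas 338 of the 994 regions with 20 to 24 reads were. This contrast follows in part from the same limit. No share over all enriched bins of each strength was counted, so it is not read as a trait of strong members. At the 92 members with an interval wholly under 0.5, which lay on all 19 autosomes, the median was 9.41 times in the NA library and 1.58 times with TGF-β/IL-4, and 29 were at least 3 times. These 92 were picked for very low ratios and held a median of 4.5 TGF-β/IL-4 reads. Their low level with TGF-β/IL-4 thus follows from the choice and is given as a description. Reads at those 92 had a median of 96.1% at top mapping quality, close to the 96.2% of all members.

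Members were summits more often than shoulders in the NA library, as were enriched bins in general at a nearly equal share. This too uses the counts of the rule, which asks for many reads in the bin in the NA library and few with TGF-β/IL-4, so the values are given as a description. In the NA library, 1588 of the 2220 member bins (71.5%) had at least as many reads as each of the 5 bins on both sides, beside 65.4% of all enriched bins and 66.9% of those with a ratio of 0.8 to 1.25. In the TGF-β/IL-4 library 34.2% of member bins were such local maxima, beside 59.3% of bins with a ratio of 0.8 to 1.25. The other 632 member bins had a higher bin within 1000 bp, with a median of 48 reads against 26 and a median ratio of 0.779. Of those higher bins 127 had a ratio of at most 0.5 and 198 a ratio over 1, so some members lie beside a stronger bin that was not itself lower.

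Lower sites lay near each other more often than enriched bins in general, and most were single. Among enriched bins with another member between 0.4 and 1 kb away, 12.8% (89 of 693) were members, beside 6.37% of the rest. Within 10 kb the shares were 9.43% (314 of 3331) and 6.18%, and within 50 kb 7.67% and 6.06%. When members were joined across gaps of up to 10 kb, 1834 stood alone and 272 fell in 121 runs. Of the runs, 106 held 2 members, 12 held 3, and the other 3 held 4, 5 and 15. No other enriched bin lay within 10 kb of 772 members (36.7%).

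Enriched bins close to a member that were not members themselves had lower ratios than those farther away. Their median ratio was 1.04 at 0.4 to 1 kb (567 bins), 1.12 at 1 to 2 kb, 1.19 at 2 to 5 kb, 1.21 at 5 to 10 kb and 1.27 beyond 50 kb, against 1.25 for all 31949. At 0.4 to 1 kb 45.0% were under 1, beside 30.8% of all. The middle 80% of values ran from 0.631 to 1.65 at 0.4 to 1 kb and from 0.711 to 2.06 beyond 50 kb, so the distributions overlapped over most of their range. Sites that were higher with TGF-β/IL-4 (at least 20 reads there, a ratio of at least 2 and the same limits, 9828 bins) were scarcer near members: 3.24% of member bins had one within 1 kb, beside 11.7% of bins with a ratio of 0.8 to 1.25, and 19.01% beside 30.9% had one within 10 kb. Adjacent bins were counted here, and member bins held a median of 7 TGF-β/IL-4 reads, beside 21 in bins with a ratio of 0.8 to 1.25. The choice of members thus makes a higher bin in the same peak less likely in advance. The share over all enriched bins was not counted. These shares are descriptions, and no test was made of them.

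**Figure D5:**
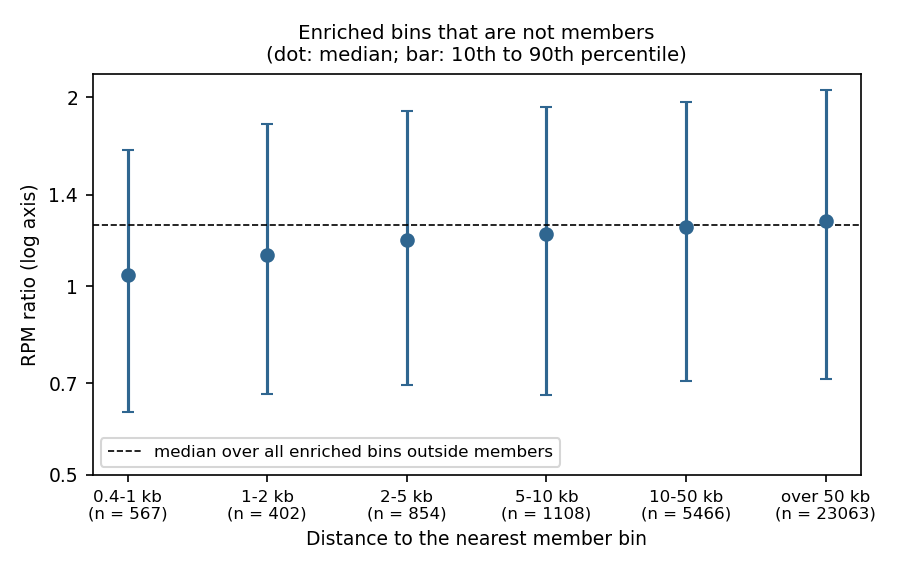
RPM ratio (log axis) of enriched bins that are not members, by distance to the nearest member bin; dots are medians and bars run from the 10th to the 90th percentile. The median rises from 1.04 at 0.4 to 1 kb to 1.27 beyond 50 kb, with wide overlap of the bars.

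At 72 member bins such a higher site lay within 1 kb, adjacent bins included. The examples that follow were picked after the values had been seen: of the 5 such members with the most reads, the first by reads and the one with the lowest ratio. On chromosome 16 the bin 52184601-52184800 had 117 NA reads and 31 TGF-β/IL-4 reads (ratio 0.391, 0.254 to 0.585), and 800 bp away the bin 52185401-52185600 had 10 NA reads and 24 TGF-β/IL-4 reads (ratio 3.54, 1.63 to 8.3). On chromosome 19 the bin 41404401-41404600 had 48 NA reads and 5 TGF-β/IL-4 reads (ratio 0.154, 0.0478 to 0.384), and 400 bp away the bin 41404801-41405000 had 43 NA reads and 59 TGF-β/IL-4 reads (ratio 2.02, 1.34 to 3.07). Both bins of each pair were chosen by these counts, so the gap between their ratios is a description of the choice.

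The densest run of members lay on chromosome 1. At chr1:90130001-90166800, a stretch of 36.8 kb, 15 members held 17 of the 67 enriched bins. There the reads were raised over the whole stretch, at a mean of 18.02 per bin in the NA library and 9.47 with TGF-β/IL-4, against 7.9 and 4.99 in the 50 kb on both sides. The members reached a median of 1.46 times their surroundings, and 14 of the 52 members at under 2 times their surroundings lay here. Over the whole stretch the ratio was 0.775 (0.731 to 0.822), and 0.832 outside the members. Top mapping quality was held by 78.7% of its reads, and by 72.3% to 93.8% at its members. The part of mapping quality in the level of this run was not tested. Without this run 2091 members remained and their median ratio was again 0.394.

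The other 2 runs of 4 or more members were shorter, and their reads were raised over the whole stretch as well. At chr7:146309201-146323200, 4 of the 9 enriched bins in 14 kb were members, with 137 reads against 24 in all and ratios from 0.158 to 0.399. Reads per bin were 12.1 in the NA library and 6.03 with TGF-β/IL-4, against 4.75 and 2.95 in the 50 kb on both sides. The whole stretch had a ratio of 0.735 (0.653 to 0.827), and 0.827 outside the members, close to the values of the chromosome 1 run. At chr11:54025601-54039000, 5 of 16 enriched bins in 13.4 kb were members, with 125 reads against 30. Reads per bin were 13.4 and 9.67, against 7.42 and 4.56 on both sides. The whole stretch there had a ratio of 1.06 (0.958 to 1.18), and 1.18 outside the members.

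Every autosome held members, in nearly even shares. The share of enriched bins that were members ran from 5.58% on chromosome 19 to 7.96% on chromosome 17. By number, chromosome 2 had the most with 189 regions, followed by chromosome 11 with 169 and chromosome 1 with 152, and chromosome 19 the fewest with 54. No chromosome stood far from the 6.5% of all.

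The number of lower regions depended on the scaling between the libraries. Scaled so that the median ratio of bins with at least 20 reads in either library was 1, which lowers every log2 ratio by 0.45, the same rule gave 4786 regions in place of 2106, and the median ratio of the 2106 was 0.287. Scaled by the reads in bins with fewer than 20 reads in both libraries, it gave 1896.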

How the data were processed

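GATA3 chromatin immunoprecipitation libraries of mouse CD4+ T cells were analysed, 1 per condition. The submitters' processing notes list CASAVA 1.0, Bowtie2 and build mm9 with neither role nor setting. Each line deposited by the authors is an aligned read of 25 bases, with its strand and a mapping quality score from 11 to 42. Per the file names reads were filtered on that score and duplicates removed, and 0 reads shared position and strand. This caps a 200-bp bin at 1 read per position and strand and compresses strong sites. Other chromosomes held 1117 and 1161 reads, left out.

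Reads were counted here with Python 3.11.15, numpy 2.4.6, scipy 1.17.1 and pandas 2.3.3; figures used matplotlib 3.10.9. The quality and strand limits were applied to the reads of both libraries together. Counting, the rule and merging were tested on simulated data. Intervals are exact Clopper-Pearson at 95% on the split of reads and cover counting error only. The floor of 3 reads covers that of the TGF-β/IL-4 count alone. PCR copies cannot be told from separate molecules. With 1 library per condition no test was made.

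The members, lists and alternatives were chosen with earlier results of these data known. Regions named were the 8 with the most reads in the NA library, the 8 with the lowest upper bound and the 8 widest. Gene lists and motif searches were planned only if mm9 annotation were at hand and were not run; the reference tables at hand are of GRCm38 and no position was converted. The choice on 1 strand, the limits on 1 library alone, the second summits, the pairs and the removal of the densest run were added after seeing the data.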

Additional observations from a re-analysis of the deposited data

Results flagged for a closer look

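Chromosome X was left out of the rule and of every comparison. Under the same limits 9 regions there were lower with TGF-β/IL-4, from 9 of 373 enriched bins (2.41%), and the median ratio of its enriched bins was 1.24. This was listed because it is a signal in reads that no comparison used.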

How the results depend on the processing

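The number of regions, 2106, was within 1.5 times under 8 of 14 alternatives and both of those added after seeing the data. It moved further with the median ratio set to 1 (4786), a minimum of 10 reads (61590) or 40 reads (362), a ratio of at most 0.4 (1127) or 0.67 (4502), and subtraction of the surrounding 10 kb (3554). With a fragment shift of 0 bp it was 1431. The median ratio of members, 0.394, was 0.287 with the median ratio set to 1, 0.408 with scaling by weakly covered bins, 0.449 and 0.413 with shifts of 0 and 100 bp, and 0.386 with reads of quality 42. Chosen in odd lines and counted in even lines it was 0.422, and 0.443 in reverse. Lines are in order of position, so these subsets are more alike than independent ones: their squared difference over their sum averaged 0.19, against 1.29 between strands. Merged to regions, the choice on the plus strand gave 0.681 on the minus strand and the reverse 0.685. The median of other enriched bins within 10 kb of members, 1.15, was 1.07 within 2 kb, 1.21 within 50 kb and 1.35 with the minimum set on the mean of both libraries, where the median of all such bins was 1.48 in place of 1.25. Depth limits members of 20 to 24 reads, whose intervals left out 1 at 48.8%. No paired analysis was possible because each condition has 1 library. The motif alternatives were not run.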
